A study of Drosophila melanogaster with 23 samples.

Results

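This comparison asked what the addition of Sen changed in midguts whose stem and progenitor cells already expressed OKSM. Its members are 6 of the 23 RNA-seq libraries of the series, 3 labelled OKSM-Sen and 3 labelled OKSM, chosen by the sample labels as they stand now. They were read over the 9373 of 17714 genes that had a mean of 10 or more reads in the 12 libraries of the stem cell model. OKSM is a UAS transgene that carries human Oct4, KLF4, Sox2 and Myc as a single transcript, none of which is in the fly reference. Sen is a UAS transgene for a senolytic peptide with a 3XHA tag, described as built from foxo in the results of the study and as a stretch of the Fork Head protein in its methods. All flies of the model came from esg-Gal4, UAS-GFP; tubGal80ts, in which the escargot driver is active in intestinal stem cells (ISCs) and enteroblasts and a heat-sensitive Gal80 holds Gal4 back at low temperature. The driver stock is also listed with UAS-dCas9.VPR. They were crossed to w; UAS-OKSM (OKSM), to w; UAS-Sen; UAS-OKSM (OKSM-Sen), to w; UAS-Sen (Sen) or to w; UAS-TdTomato (the control, WT). OKSM-Sen flies thus carried a further UAS transgene on the same Gal4 source as OKSM flies. The constructs were expressed constantly, the growth notes give 25 degrees C, and the age and sex of the flies at dissection are not given in the sources used here. In the other model of the series, called ubiquitous, the same transgenes were driven by armGal4.

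The fly midgut is an epithelium kept up by ISCs, which divide to renew themselves and to give enteroblasts that mature into absorptive enterocytes, while other progeny become enteroendocrine cells. Reprogramming factors push cells towards a less differentiated state, and Myc is known in flies as a driver of cell growth. FoxO, a transcription factor held back by insulin signalling, binds p53 in mammalian senescent cells, and senolytic peptides of this kind were designed to break that contact.

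The tissue label reads intestinal stem cells, but the methods describe whole dissected midguts. Levels are given in CPM, expected counts scaled to a library of fixed size with TMM factors. The 12 ISC and enteroblast markers found in the files, 10 of which were tested, summed to 124 to 200.0 CPM in OKSM and 119 to 149 CPM in OKSM-Sen. Summed levels of 11 digestive trypsins were 10188 to 29201 CPM in OKSM and 11316 to 20643 CPM in OKSM-Sen. The 7 markers of enterocytes, the absorptive cells, summed to 8694 to 9586 CPM in OKSM and to 7056 to 7724 CPM in OKSM-Sen, without overlap, beside 5298 to 6899 CPM in WT and 8513 to 9263 CPM in Sen. Of all genes tested, 17.1% did not overlap between OKSM and OKSM-Sen libraries. The median log2 fold change of the 7 markers was -0.08, with 2 of them above 0. None of the 7 was called in OKSM-Sen against OKSM by edgeR and 1, Npc1b, was called lower by DESeq2. The part of enterocytes in the results was not tested. In such bulk tissue, fewer cells of a type and less RNA per cell cannot be told apart. Total expected counts ran from 15715341 to 15952240 in OKSM and from 16107463 to 18356846 in OKSM-Sen. Gene ranks correlated at 0.979 to 0.988 (Spearman) within OKSM, at 0.952 to 0.982 within OKSM-Sen and at 0.959 to 0.982 between them, so that the groups were as close to each other as OKSM-Sen libraries were among themselves. OKSM-Sen replicate 2 stood apart on the second principal component, at -51.2 against -28.2 to 28.8 for the other 11 libraries. OKSM-Sen replicate 3 had the most RNA of ovary and egg markers, 2075 CPM over the list against 611 and 773 CPM in its fellow replicates and 490 to 630 CPM in OKSM, and its label had been exchanged with that of Sen replicate 3 until the submitters corrected both. Nothing in the labels says that replicates came from separate cohorts, so the p-values measure the spread between these libraries, which may be technical. Of the construct check genes 4 were tested and none was called. The largest change among them was that of fkh, the Fork Head gene, at a log2 fold change of 0.42, beside 0.39 in Sen against WT. Endogenous Myc does not check OKSM, since the human factors are not in the reference and both groups carried OKSM. Endogenous Myc read 124, 136 and 154 CPM in OKSM and 169, 154 and 187 CPM in OKSM-Sen, and foxo read 83.8, 82.3 and 75.6 CPM against 90.8, 88.7 and 90.6 CPM.

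Few genes distinguished OKSM-Sen from OKSM. At an FDR of 10% (edgeR quasi-likelihood test, Benjamini-Hochberg over 9373 genes), 63 genes were called, which is 0.672% of those tested. Of these, 25 (0.267%) were higher and 38 (0.405%) lower in OKSM-Sen, and 1020 genes had an unadjusted p under 0.05. The largest changes among them were near all-or-nothing and concerned genes of low level. The Toll ligand relative spz4 and the genes CG8642 and CG15236 were higher, and the Turandot gene TotM, the cuticle gene Pcp and CG10936 were lower. Beyond these, 37 of the 63 called genes moved by a log2 fold change of 1 or less. The median size over all 63 was 0.93. The median gene did not shift (log2 fold change 0.01) and had a standard error of 0.15. The 95% interval lay within 1 on the log2 scale, that is within a doubling or a halving, for 7346 genes or 78.4% of those tested, and the remaining genes were too variable to set that bound. The calls leaned on single libraries. Without OKSM-Sen replicate 3 only 10 genes were called, without OKSM replicate 1 there were 35, without OKSM replicate 2 there were 41, without OKSM-Sen replicate 1 there were 42, and without OKSM-Sen replicate 2 there were 44. DESeq2 called 274 genes, the 63 among them. With only the 6 libraries of OKSM-Sen and OKSM fitted, 40 genes were called, 24 of them among the 63. In 9 genes the call held with each of the 12 libraries of the model left out in turn: spz4, Ipk2, beta4GalNAcTA, CG3635, HIP-R, CG31955, CG11885, rau and CG10341. Of these 9, 7 also held in every other setting. The call of beta4GalNAcTA ended with the labels before their correction or with only the 6 libraries, and that of HIP-R with those earlier labels. Pcp and lncRNA:CR44442 held in the 11 of 12 in which they passed the filter on reads, but lncRNA:CR44442 was lost with the earlier labels and with only the 6 libraries.

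The clearest increase was that of spz4 (2L, 11501715 to 11508649, BDGP6.54), whose product resembles Spatzle, the cytokine that activates the receptor Toll. It read 0.712, 0.206 and 0.374 CPM in OKSM and 7.46, 6.92 and 8.68 CPM in OKSM-Sen. The same level was present in the Sen libraries (6.9, 7.09 and 7.81 CPM) and not in WT (0.318, 0.699 and 0.245 CPM). All libraries that carried Sen thus lay above all that did not. The log2 fold change was 4.14 ± 0.39 (SE, adjusted p = 0.00194, n = 3 against 3).

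Several enzymes and a transcription factor were higher in OKSM-Sen by smaller factors, and in each gene of this set all libraries with Sen lay above all those without it. Mondo (2L, 21286078 to 21310050), the fly counterpart of the mammalian sugar sensors MondoA and ChREBP, read 89, 108 and 87.4 CPM in OKSM and 253, 229 and 279 CPM in OKSM-Sen. Its log2 fold change was 1.42 ± 0.20 (adjusted p = 0.0172). Ipk2 (2L, 573033 to 574264), an inositol polyphosphate kinase, read 27.4, 28.8 and 29.5 CPM in OKSM and 62, 48.3 and 60.5 CPM in OKSM-Sen, with a log2 fold change of 0.99 ± 0.12 (adjusted p = 0.0104). In both genes the groups were well apart. AANATL2, of the arylalkylamine N-acetyltransferase family, rose from 3.27, 4.61 and 7.54 CPM to 14.6, 21.8 and 19.2 CPM (log2 fold change 1.84 ± 0.32). The glycosyltransferase beta4GalNAcTA rose from 52.5, 54.6 and 59 CPM to 80.9, 112 and 92 CPM (0.78 ± 0.11), above the Sen libraries at 79.8, 70.4 and 69.7 CPM. The ABC transporter MRP rose from 570, 557 and 500 CPM to 785, 723 and 791 CPM (0.50 ± 0.09). Each of these 3 passed the test, with adjusted p = 0.0441, 0.0172 and 0.0441. The centrosome scaffold gene cnn rose from 20.9, 19.6 and 19 CPM to 30.7, 30.6 and 39.9 CPM (0.77 ± 0.13, adjusted p = 0.0365). CG34423 rose from 4.27, 6.4 and 2.74 CPM to 15.2, 12.9 and 13.1 CPM (1.62 ± 0.25, adjusted p = 0.0243). CG33301 was at 28.6, 58.4 and 28.7 CPM in OKSM and at 113, 99 and 91.7 CPM in OKSM-Sen (1.39 ± 0.26, adjusted p = 0.0668).

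Other higher genes had another order of the groups. CG3635 (2L, 22175415 to 22183991) was lowest in OKSM, at 9.25, 10.7 and 9.47 CPM. It was at 17.5, 24.3 and 20.2 CPM in OKSM-Sen, 22.7, 20.4 and 18 CPM in Sen and 40.3, 38.9 and 40.5 CPM in WT, so that the gene lay between OKSM and WT when Sen was added. Its log2 fold change was 1.08 ± 0.13 (adjusted p = 0.0104). The snoRNA host gene Uhg1 had the same order, with 1.85, 3.51 and 2.31 CPM in OKSM, 5.95, 5.77 and 5.33 CPM in OKSM-Sen and 7.12, 7.11 and 6.49 CPM in WT (1.15 ± 0.21, adjusted p = 0.0441). The stathmin gene stai, whose product takes up tubulin, read 5.34, 4.81 and 4.43 CPM in OKSM and 7.15, 8.59 and 8.95 CPM in OKSM-Sen (0.76 ± 0.16, adjusted p = 0.0932), with WT at 11.8, 10.2 and 8.57 CPM and Sen at 3.57, 2.99 and 3.55 CPM. Others were higher in OKSM-Sen than in any other library. The glutathione S-transferase gene GstD8 read 3.94, 5.02 and 4.28 CPM in WT, 20.4, 19.5 and 23.4 CPM in OKSM and 33.2, 39.3 and 54 CPM in OKSM-Sen (1.00 ± 0.18, adjusted p = 0.0481). The malic enzyme gene Men-b read 215, 246 and 172 CPM in OKSM and 320, 378 and 432 CPM in OKSM-Sen (0.84 ± 0.18, adjusted p = 0.0932). CG9498 read 43.6, 84.8 and 54.1 CPM against 144, 138 and 108 CPM (1.10 ± 0.23, adjusted p = 0.0932). HIP-R rose from 39, 38.6 and 45 CPM to 70.6, 65.7 and 69.7 CPM (0.75 ± 0.10, adjusted p = 0.0123), while its neighbour and relative HIP fell from 48.5, 43.8 and 49.2 CPM to 33.5, 36.7 and 36.5 CPM (-0.41 ± 0.08, adjusted p = 0.0674). Both encode Hsc70-interacting proteins and may share reads, so the 2 are uncertain singly. Their sum was 87.5, 82.4 and 94.2 CPM in OKSM and 104, 102 and 106 CPM in OKSM-Sen.

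**Figure D1:**
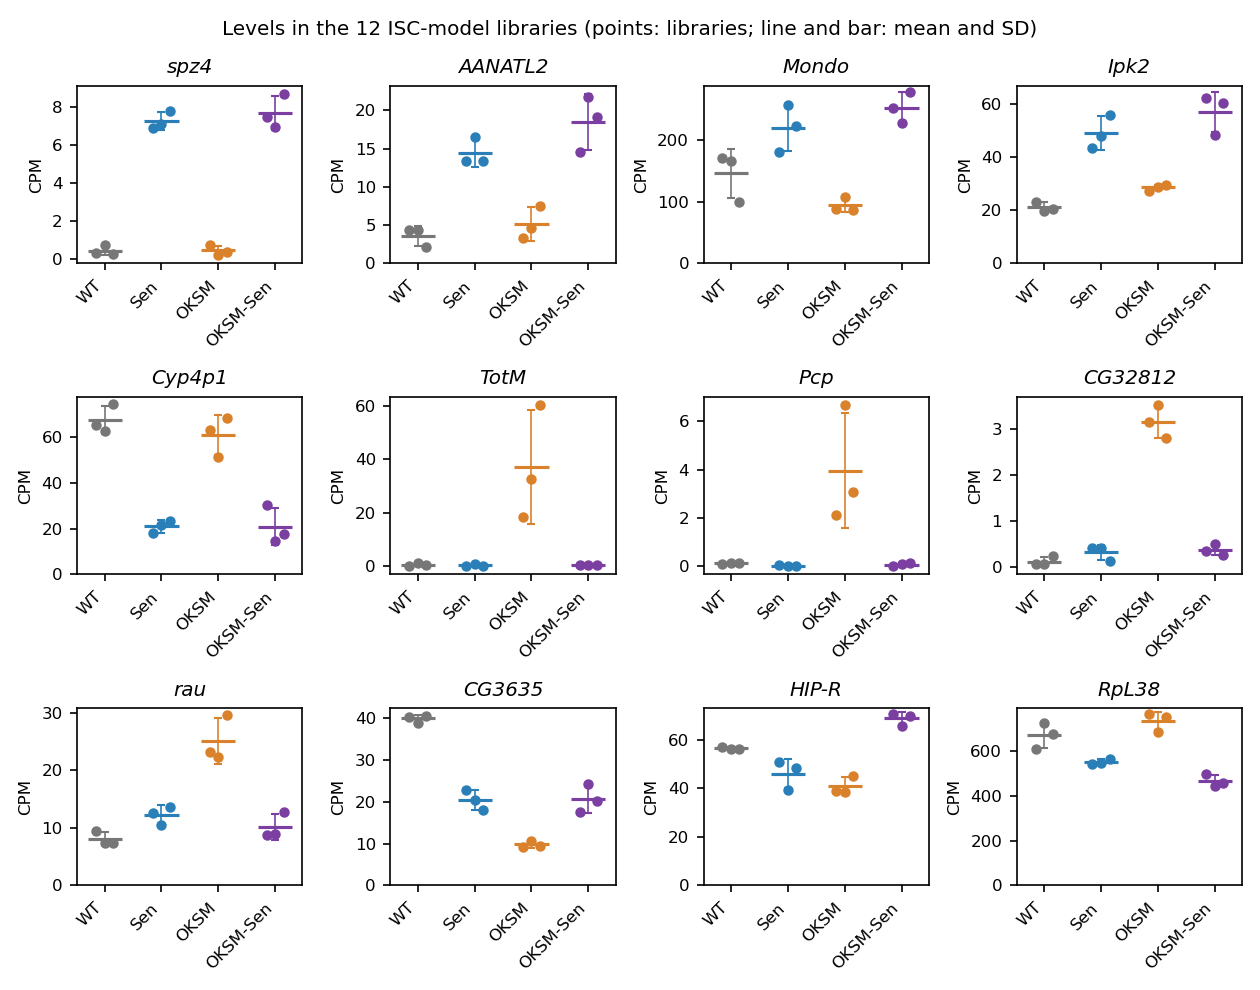
CPM of 12 genes called between OKSM-Sen and OKSM in the 12 libraries of the ISC model, each panel on its own linear axis that starts at or below 0 (points, libraries; line and bar, mean and SD, n = 3). In the top row and in Cyp4p1 the Sen and OKSM-Sen libraries lie together, as at spz4 with 6.9 to 7.81 and 6.92 to 8.68 CPM. In TotM, Pcp, CG32812 and rau the OKSM libraries stand alone.

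The lower genes were led by 3 that were on in OKSM and close to off elsewhere. TotM (2L, 5329857 to 5330464), a secreted Turandot protein of the stress response, read 18.1, 32.4 and 60.2 CPM in OKSM and 0.24, 0.449 and 0.275 CPM in OKSM-Sen. WT and Sen libraries held at most 1.21 CPM. In reads, OKSM had 1692 and OKSM-Sen 16, a ratio of 120 once scaled to CPM (73.4 to 210, 95% interval of counting error only). The fitted log2 fold change was -6.82 ± 0.88 (adjusted p = 0.0161). Pcp (2L, 7021682 to 7022470), which encodes a cuticle protein of the pupa, had 176 reads in OKSM and 3 in OKSM-Sen, or 2.14, 6.67 and 3.05 CPM against 0, 0.0641 and 0.11 CPM (adjusted p = 0.0104). CG10936 had 217 reads against 4 (adjusted p = 0.0196). In all 3 genes the OKSM libraries lay above the other 9. CG32812 had the same shape at 3.13, 3.51 and 2.8 CPM against 0.361, 0.513 and 0.275 CPM (adjusted p = 0.0181). The opposite case was lncRNA:CR44442, with 0 reads in OKSM and 220 in OKSM-Sen. In CPM it was at least 64.9-fold higher against a floor of 3 reads over the OKSM group (adjusted p = 0.0347). Its neighbour CG15236 rose with it, from 0.356, 0.206 and 0.0623 CPM to 3.49, 1.86 and 9.39 CPM (adjusted p = 0.0406).

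A second set was about halved, to near the level of WT or Sen. CG31955 (2L, 3711881 to 3713105) read 17.1, 16.5 and 17.5 CPM in OKSM and 8.42, 8.84 and 7.74 CPM in OKSM-Sen, close to 9.41, 8.45 and 9.24 CPM in WT. Its log2 fold change was -1.03 ± 0.10 (adjusted p = 0.00194). CG11885 fell from 13.1, 11.6 and 12.8 CPM to 5.41, 6.47 and 6.64 CPM, with WT at 6.87, 6.99 and 6.12 CPM (-1.01 ± 0.13, adjusted p = 0.0104). The gene rau, a Ras-association protein that sustains receptor tyrosine kinase signalling, fell from 23.2, 22.4 and 29.7 CPM to 8.72, 8.91 and 12.9 CPM, with WT at 9.41, 7.43 and 7.47 CPM (-1.30 ± 0.18, adjusted p = 0.0162). In each of these 3 genes the OKSM libraries again lay above the other 9. This was so for 19 of the 38 lower genes, beside 195 genes or 2.08% of all tested. Neighbouring serine protease genes belonged here as well. Ser6 fell from 729, 700 and 853 CPM to 396, 409 and 472 CPM (-0.84 ± 0.17, adjusted p = 0.0715) and CG4053 from 85.5, 77.2 and 71.8 CPM to 31.5, 38.2 and 39.6 CPM (-1.10 ± 0.19, adjusted p = 0.0406). Their neighbours CG1304 and CG31266 fell too, by 0.65 and 0.93 on the log2 scale. The secretion factor gene Cadps fell from 22.8, 18.6 and 16.2 CPM to 9.68, 5.51 and 11 CPM (-1.13 ± 0.22, adjusted p = 0.0672). The zinc transporter gene Zip42C.1 fell from 48.3, 38.3 and 59.7 CPM to 20.2, 29.2 and 24.5 CPM (-0.98 ± 0.19, adjusted p = 0.0651).

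A last set was low wherever Sen was expressed. Cyp4p1, a cytochrome P450 gene on 2R (9240041 to 9242139), read 65.2, 62.4 and 74.3 CPM in WT and 63.2, 51.4 and 68.1 CPM in OKSM, against 17.9, 21.7 and 23.5 CPM in Sen and 30.1, 14.6 and 17.8 CPM in OKSM-Sen. Its log2 fold change against OKSM was -1.55 ± 0.23 (adjusted p = 0.0243). The carotenoid scavenger receptor gene santa-maria fell from 62.7, 60.3 and 72.5 CPM to 42.3, 35.3 and 34.8 CPM (-0.80 ± 0.11, adjusted p = 0.0161), and the C-type lectin gene lectin-28C from 9.18, 15.3 and 9.47 CPM to 3.37, 4.68 and 5.16 CPM (-1.36 ± 0.27, adjusted p = 0.0701). In 12 of the 38 lower genes all libraries with Sen lay below all those without it, and in 13 of the 25 higher genes above, beside 113 (1.21%) and 118 (1.26%) of all genes tested. These shares describe the called genes and are no test, since the calls themselves use the OKSM and OKSM-Sen libraries.

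Most of the named calls ended when a single library was left out. Without OKSM-Sen replicate 3 the adjusted p of TotM was 0.124, of Mondo 0.108, of santa-maria 0.108, of CG34423 0.108, of Cyp4p1 0.16, of cnn 0.155, of GstD8 0.173, of AANATL2 0.173, of Uhg1 0.168 and of CG4053 0.161. In TotM, Mondo, santa-maria, CG34423 and Cyp4p1 no other library had that effect, and over the 12 leave-outs their adjusted p ran from 0.0163, 0.00434, 0.0128, 0.00925 and 0.00376 upwards to those values. The calls of Men-b, stai and CG9498 were the weakest, with 10, 10 and 11 of the 12 leave-outs over the threshold and adjusted p up to 0.37, 0.37 and 0.231. The calls of GstD8 and AANATL2 also ended without OKSM replicate 1, OKSM replicate 2 or OKSM-Sen replicate 2, with adjusted p of 0.103 to 0.14. That of cnn ended without OKSM replicate 2 (0.111) or OKSM replicate 3 (0.112) as well, and that of CG4053 without OKSM replicate 1 (0.111), OKSM replicate 2 (0.107) or OKSM-Sen replicate 1 (0.136). That of MRP ended without OKSM replicate 2 (0.115), OKSM replicate 3 (0.128), OKSM-Sen replicate 1 (0.145) or OKSM-Sen replicate 3 (0.225). Uhg1, Cadps and Acox57D-d were each lost in 5 leave-outs, CG33301 in 6, lectin-28C and GstE11 in 8 and Ser6 in 9, with adjusted p up to 0.168, 0.166, 0.225, 0.186, 0.206, 0.285 and 0.202. HIP was lost in 7 (up to 0.225), CG31683 in 6 (0.193), CG31266 in 4 (0.225), CG15236 and CG1304 in 3 (0.155 and 0.173), CG8642 in 2 (0.155), and CG10936, CG32812 and CG2493 in that without OKSM-Sen replicate 3 (0.108, 0.147 and 0.108). Zip42C.1 and ND-15 were lost in 4, with adjusted p up to 0.238 and 0.225. No direction changed in any leave-out.

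Sen was also set against WT, without OKSM, in libraries that the comparison above does not use. The 2 comparisons are called the additions of Sen here. WT flies carried UAS-TdTomato, so Sen against WT exchanges TdTomato for Sen, while OKSM-Sen against OKSM involves no TdTomato. What is particular to the WT flies cannot be told apart from Sen, in Sen against WT or in the difference below. On the first principal component WT libraries lay at 37.5 to 53.4 and the highest other library, OKSM-Sen replicate 2, at 7.10. Sen against WT called 3418 genes (36.5%), 1704 higher and 1714 lower, where OKSM-Sen against OKSM called 63. The 95% interval lay within 1 on the log2 scale for 67.9% of genes in Sen against WT and for 78.4% in OKSM-Sen against OKSM, at median standard errors of 0.15 for both. The difference of the 2 log2 fold changes, tested in the same fit, was called for 2055 genes (21.9%), of which 990 were more positive and 1065 more negative in the presence of OKSM. Without WT replicate 1 it was called for 1332 genes and without WT replicate 2 for 1336, and the count ran up to 2501 over the leave-outs. Of the 63 genes called in OKSM-Sen against OKSM, 44 were also called in Sen against WT, 32 in the same direction (50.8% of the 63, 0.936% of the 3418) and 12 in the opposite one. The sign agreed for 44 of the 63 genes, beside 50.3% of all genes.

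**Figure D2:**
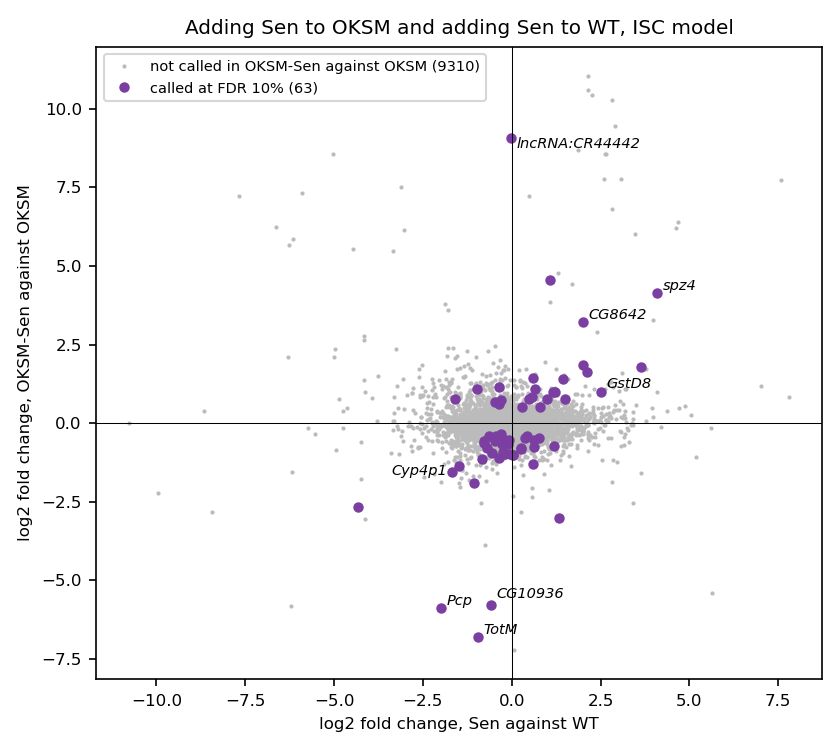
Log2 fold change of each of the 9373 tested genes in OKSM-Sen against OKSM (vertical axis) and in Sen against WT (horizontal axis), ISC model. Filled points are the 63 genes called in OKSM-Sen against OKSM. The cloud is wider from left to right than from bottom to top, with 1228 genes over 1 on the log2 scale in Sen against WT and 288 in OKSM-Sen against OKSM. Genes far from 0 on the vertical axis that are not called varied between replicates. The marking says nothing of the horizontal axis, on which 3418 genes were called in Sen against WT.

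Several of the genes with the smallest p in that difference had a large step from WT to Sen and none of that size from OKSM to OKSM-Sen. GstD9, a glutathione S-transferase gene, read 6.87, 7.43 and 7.71 CPM in WT and 158, 182 and 236 CPM in Sen, but 207, 153 and 139 CPM in OKSM and 214, 247 and 232 CPM in OKSM-Sen. The difference of the log2 fold changes was -4.23 ± 0.24 (adjusted p = 2.5e-05). CG10559 gave -3.48 ± 0.24, CG13313 -4.33 ± 0.42, CG40472 -2.47 ± 0.17 and CG10337 -1.72 ± 0.15, each with Sen above WT and with OKSM and OKSM-Sen near the level of Sen. In the other direction, Ttd14 read 153, 141 and 142 CPM in WT and 59.7, 67.9 and 57.8 CPM in Sen, against 71.2, 75.3 and 70.7 CPM in OKSM and 79.2, 85 and 81.8 CPM in OKSM-Sen (difference 1.41 ± 0.11, adjusted p = 0.00012). Daao2, a D-amino acid oxidase gene, gave 1.45 ± 0.13 and CG4741 1.99 ± 0.20. In CG3635 (2.04 ± 0.18) and stai (2.35 ± 0.23) the directions were opposite, lower with Sen alone and higher with Sen added to OKSM. For TotM the log2 fold change was -0.95 ± 1.14 in Sen against WT and -6.82 ± 0.88 in OKSM-Sen against OKSM (difference -5.88 ± 1.63, adjusted p = 0.043).

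Of 47 gene lists, 46 had a tested member, 9 held a gene called in OKSM-Sen against OKSM by edgeR, and none held more than 2. By DESeq2 20 lists held a called gene, with at most 4 in a list, beside 274 of all 9373 genes (95 higher, 179 lower). Counts of list members below are by edgeR unless DESeq2 is named. The median log2 fold change lay within 0.25 of 0 for 38 lists. Side by side, many of these lists moved when Sen or OKSM alone was set against WT. The comparisons of OKSM with WT and of OKSM-Sen with OKSM share the OKSM libraries, so only their own values are given.

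Of 40 DNA replication genes none was called in OKSM-Sen against OKSM (median 0.08, against 0.01 for all genes), and for 39 of them the 95% interval lay within 1. In Sen against WT 24 of the 40 rose (median 0.77), and in OKSM against WT 23 rose (median 0.72), where 18.2% and 17.3% of all genes rose. The difference between the additions of Sen was negative for 19 and positive for 1, beside 11.4% and 10.6% of all genes. PCNA, the sliding clamp of DNA polymerase, read 14.7, 9.7 and 17.1 CPM in OKSM and 11.4, 14.4 and 14.1 CPM in OKSM-Sen, against 6.48, 2.98 and 5.02 CPM in WT. The 95% interval of its change from OKSM to OKSM-Sen was -0.63 to 0.51. Of 52 mitosis genes cnn alone was called (median 0.05).

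Of 10 tested ISC and enteroblast markers edgeR called none (median 0.17) and DESeq2 called 1, zfh2, lower. In Sen against WT 8 of them rose (median 1.19), beside 18.2% of all genes. In OKSM against WT 4 rose and 1 fell, beside 17.3% and 15% of all genes. The difference was negative for 7 of them, beside 11.4% of all genes. Delta, the Notch ligand of ISCs, read 5.84, 5.78 and 7.23 CPM in OKSM and 7.34, 6.6 and 7.03 CPM in OKSM-Sen (0.15, 95% interval -0.20 to 0.50), with WT at 4.96, 4.06 and 5.32 CPM and Sen at 12, 8.9 and 10.2 CPM. Sox21a, a transcription factor of ISCs and enteroblasts, read 27, 25.2 and 30.1 CPM in OKSM and 30.8, 32 and 31.6 CPM in OKSM-Sen (0.20, 95% interval -0.21 to 0.60), with Sen at 43.8, 41 and 41.1 CPM. Sox100B, of the same family, read 35, 21 and 22.8 CPM against 27.8, 33.6 and 28.1 CPM (0.18, interval -0.29 to 0.66). The driver's own gene was not analysed here. The widest member was zfh2, at 58.9, 113 and 17.1 CPM in OKSM and 18.8, 20.6 and 21.3 CPM in OKSM-Sen, which did not pass the edgeR test (adjusted p = 0.296). OKSM replicate 3 lay below the OKSM-Sen libraries.

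Of 86 cytosolic ribosomal protein genes 83 fell in Sen against WT (median -0.58) and 82 in OKSM against WT (median -0.67), where 18.3% and 15% of all genes fell. In OKSM-Sen against OKSM the median was -0.03, the interval lay within 1 for 85 of them, and a single member was called by edgeR and 2 by DESeq2. Called by both was RpL38, at 763, 686 and 751 CPM in OKSM and 497, 443 and 458 CPM in OKSM-Sen (-0.65 ± 0.09, adjusted p = 0.0143, 0.108 without OKSM-Sen replicate 3). The difference between the additions was positive for 59 and negative for 1, beside 10.6% and 11.4% of all genes. Of 35 glutathione genes GstD8 was higher and GstE11 lower, the latter at 39.4, 30.1 and 37 CPM against 23.1, 18.7 and 21.6 CPM (-0.75 ± 0.15, adjusted p = 0.0831). In Sen against WT 18 of the 35 rose and 2 fell, beside 18.2% and 18.3% of all genes. Of 15 heat-inducible chaperone genes 8 rose in Sen against WT and 9 in OKSM against WT, beside 18.2% and 17.3% of all genes, and none was called here (median 0.05), though the interval lay within 1 for only 4. Hsp26 read 44.1, 45.6 and 33.7 CPM against 59.9, 24.7 and 32.3 CPM.

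**Figure D3:**
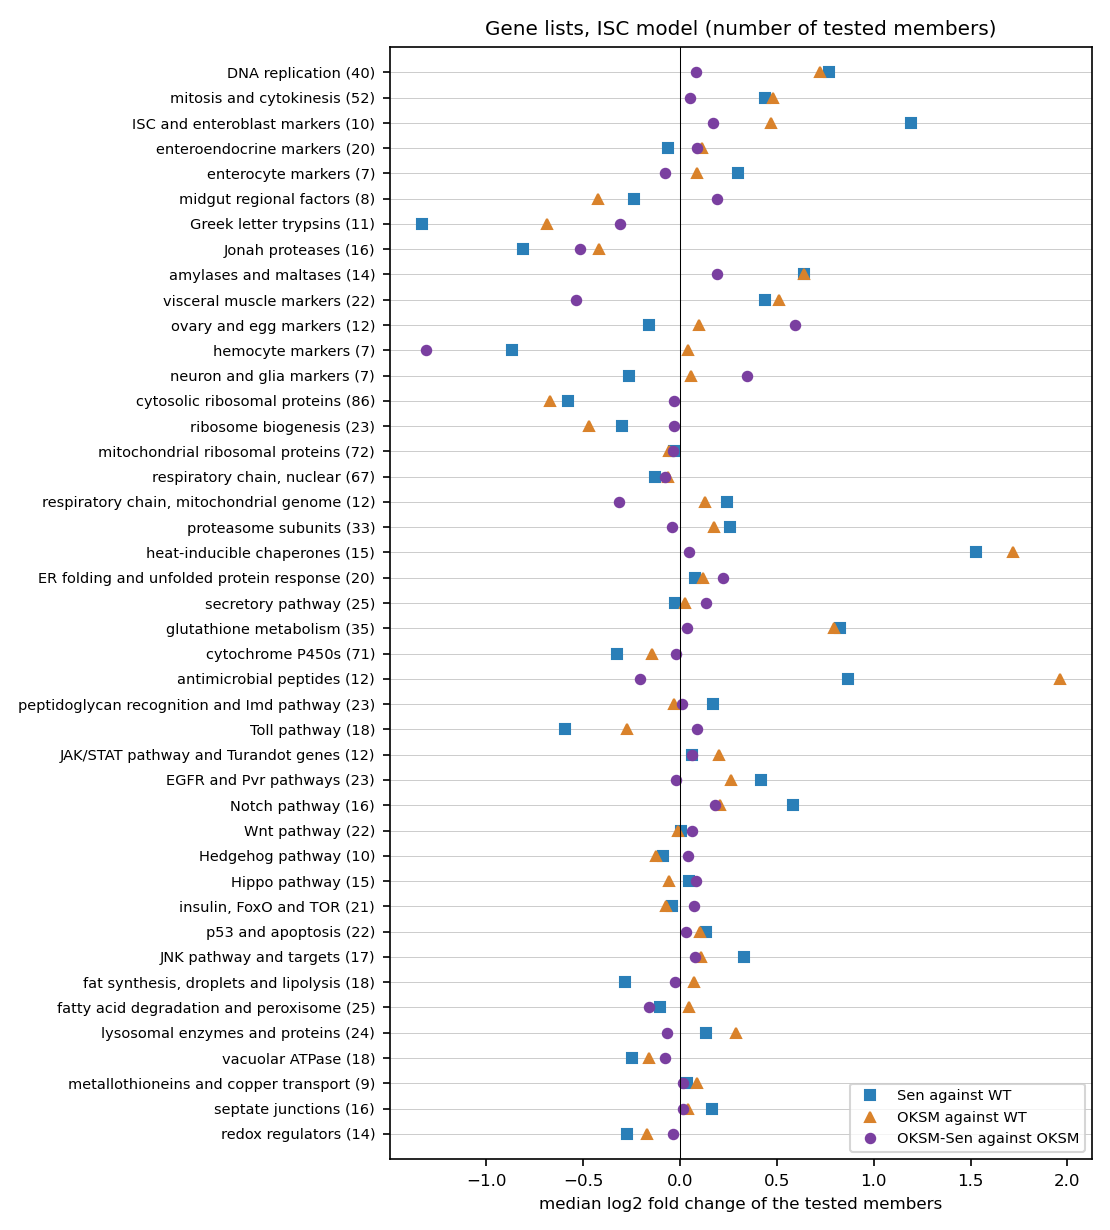
Median log2 fold change of the tested members of each gene list with 7 or more of them, ISC model (circles, OKSM-Sen against OKSM; squares, Sen against WT; triangles, OKSM against WT; number of tested members in brackets). The circles of DNA replication (0.08), cytosolic ribosomal proteins (-0.03) and heat-inducible chaperones (0.05) lie near 0 while squares and triangles do not. Visceral muscle (-0.54) and hemocyte markers (-1.31) lie lowest among those named in the text.

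Members of the Toll pathway were followed by role. Of 18 tested, spz4 was the only one called. The other ligands spz (-0.28 ± 0.36) and spz3 (-0.16 ± 0.65) were at 2.14 CPM or less in both groups. The receptor gene Tl read 4.84, 2.48 and 2.99 CPM in OKSM and 3.91, 3.91 and 4.17 CPM in OKSM-Sen. Its adaptors Myd88 (0.24 ± 0.10) and tub (0.01 ± 0.12), the kinase pll (0.15 ± 0.14), the inhibitor cact (-0.09 ± 0.10) and the NF-kB factors dl (-0.03 ± 0.10) and Dif (-0.27 ± 0.27) did not pass the test. Neither did the recognition genes GNBP1 and GNBP3, the upstream proteases modSP, grass and SPE or the serpin gene nec. The secreted target BomS1 read 0.142, 0.138 and 0.499 CPM against 1.08, 0.128 and 0.934 CPM, and the other tested target, BomS3, 2.35, 1.1 and 0.873 CPM against 4.33, 1.73 and 5.22 CPM. Their groups overlapped. Of 12 antimicrobial peptide genes none was called (median -0.21), and no interval lay within 1. DptA, a target of the Imd pathway, read 34.8, 10.2 and 8.73 CPM against 19.4, 16.7 and 18.9 CPM.

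In the JAK/STAT list, which held TotM, the other 11 tested members were not called. The ligand genes upd2 and upd3 read 11.5, 9.29 and 1.81 CPM and 21, 21.5 and 10.7 CPM in OKSM, and 9.26, 2.69 and 4.5 CPM and 31.9, 16.2 and 22.2 CPM in OKSM-Sen. The receptor gene dome (0.06 ± 0.09), the kinase gene hop (0.16 ± 0.12) and Stat92E (-0.11 ± 0.08) had intervals within 0.43 of 0. The feedback inhibitor gene Socs36E read 353, 289 and 133 CPM against 436, 217 and 243 CPM. The relatives TotA and TotC, at 0.561 to 1.99 CPM in OKSM and 0.421 to 2.47 CPM in OKSM-Sen, did not follow TotM (0.46 ± 0.76 and 0.23 ± 0.49).

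Metabolic lists held single calls. Of 25 genes of fatty acid degradation and the peroxisome, the acyl-CoA oxidase gene Acox57D-d fell from 243, 301 and 222 CPM to 124, 140 and 132 CPM (-0.95 ± 0.18, adjusted p = 0.0577), against a list median of -0.16. The call ended without any of 5 libraries, with adjusted p between 0.112 and 0.225. Of 67 nuclear genes of the respiratory chain, the complex I gene ND-15 fell from 132, 118 and 113 CPM to 80.3, 88.8 and 79.4 CPM (-0.55 ± 0.10, adjusted p = 0.0441). Of 71 cytochrome P450 genes edgeR called Cyp4p1 alone, and DESeq2 called 4, of which 2 were higher and 2 lower. No Notch, Wnt, insulin or apoptosis gene of the lists was called by edgeR or DESeq2. No proteasome, lysosomal or Hippo gene was called by edgeR, and DESeq2 called 1 of each: Prosalpha1R and sd higher and CtsB lower.

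Of 22 visceral muscle markers 1 was called lower by edgeR and 3 by DESeq2 (median -0.54), with 19 of the 22 below 0. The edgeR call was Mlc2, the gene of myosin regulatory light chain, at 348, 239 and 212 CPM in OKSM and 179, 149 and 131 CPM in OKSM-Sen (-0.80 ± 0.17, adjusted p = 0.0932). The call ended in 11 of 12 leave-outs, all but that of OKSM replicate 3, with adjusted p up to 0.374. Summed over the list, OKSM libraries held 5854, 3701 and 3577 CPM and OKSM-Sen libraries 3751, 3112 and 3080 CPM, so that OKSM replicate 1 stood highest and the groups overlapped. Muscle surrounds the midgut epithelium, and what the share of muscle adds to Mlc2 was not tested. Hemocyte markers had the lowest list median (-1.31 over 7 tested genes, none called). Hml read 4.84, 20.6 and 10.8 CPM against 5.41, 5.83 and 3.35 CPM.

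The called genes were unevenly placed. Chromosome 2 held 45 of the 63 (71.4%) but 38.2% of all genes tested. On 2L 27 of 1668 genes were called (1.62%) and on 2R 18 of 1914 (0.94%), against 1 of 1796 on 3L, 8 of 2312 on 3R, 8 of 1526 on the X and 1 of 77 on chromosome 4. The 45 were 21 higher and 24 lower genes. Called genes of Sen against WT were not so placed, at 34.5% to 40.2% of the genes of each arm, nor were those of the difference between the additions, at 19.7% to 24.1%. Across the settings tried, chromosome 2 held between 54.4% (DESeq2) and 90% (without OKSM-Sen replicate 3) of the calls. In 6 pairs, called genes lay within 20 kb of each other, such as CG31683 and CG2493 on 2L, of which the former fell (-0.78) and the latter rose (0.98). HIP-R and HIP, which may share reads, are among these pairs. No such count was made over all tested genes, so the pairs are description only. The OKSM and OKSM-Sen flies came from different UAS stocks. The cross is written with Sen and OKSM as separate elements, with Sen in the place that fly notation gives to chromosome 2. The methods instead give a single insertion site for the transgenes, attP2, at a band on 3L, where 1 of 1796 genes was called. Where Sen was inserted was not tested. The Sen transgene and the chromosomes that came with it cannot be told apart in this design.

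**Figure D4:**
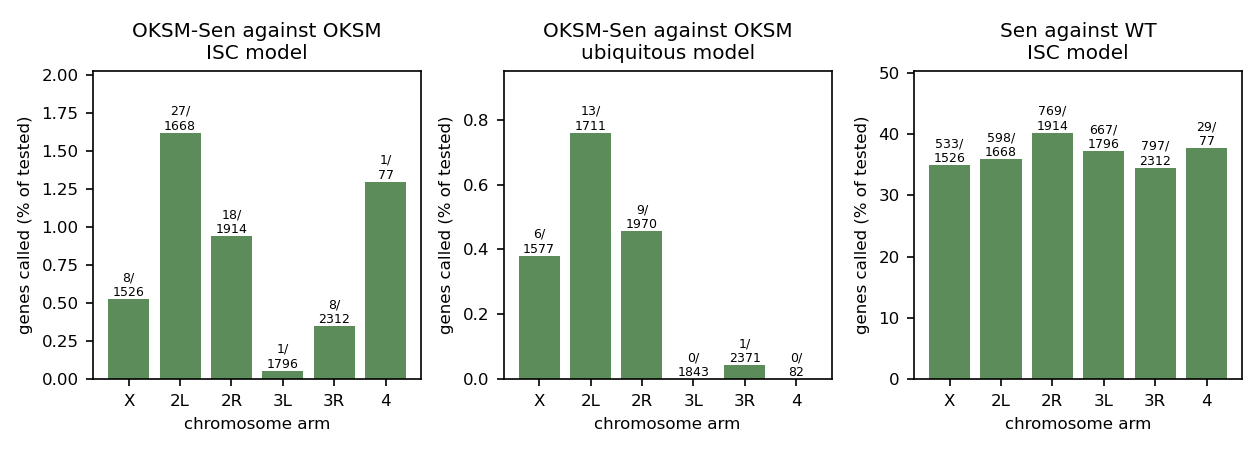
Genes called at FDR 10% as a percentage of the genes tested on each chromosome arm, with called and tested genes above each bar (bars start at 0, and each panel has its own scale). In OKSM-Sen against OKSM, 2L is highest under both drivers, at 1.62% in the ISC model. In Sen against WT all arms lie between 34.5% and 40.2%.

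The same comparison under armGal4 used 6 other libraries of 34298472 to 46324866 counts. It called 29 of 9636 genes (0.301%), 14 higher and 15 lower, with 640 at an unadjusted p under 0.05. Of these 22 lay on chromosome 2 (75.9%) and none on 3L. Of the 60 ISC-model calls that could be tested there, 55 had the same sign (91.7%), beside 58% of all genes tested in both. Restricted to chromosome 2 these were 37 of 42. Called in both models, all in the same direction, were 7 genes: Pcp, TotM, spz4, CG10341, CG8642, CG31683 and CG34423, which is 11.7% of the 60 and 25.9% of the 27 called under armGal4 among genes tested in both. There spz4 read 0.417, 0.661 and 0.365 CPM in OKSM and 3.68, 6.27 and 5.83 CPM in OKSM-Sen (3.45 ± 0.43, adjusted p = 0.0128). TotM read 4.09, 3.43 and 2.19 CPM against 0.0579, 0.169 and 0.0711 CPM (-4.99 ± 0.72, adjusted p = 0.0265). Pcp read 5.54, 2.49 and 5.41 CPM against 0.116, 0.141 and 0.119 CPM (-5.13 ± 0.71, adjusted p = 0.0231). The same on or off states were thus seen in libraries from both drivers. The crosses list the same UAS lines for both. The Sen transgene and the chromosomes that came with it therefore cannot be told apart here either. Ipk2 was at 11.4, 17.8 and 17.6 CPM against 29.3, 26.5 and 35.8 CPM, a log2 fold change of 0.97 ± 0.18 that is close to the 0.99 of the ISC model but did not pass the test (adjusted p = 0.112). Mondo gave 0.57 ± 0.13 (adjusted p = 0.205) and RpL38 0.15 ± 0.16 (adjusted p = 1).

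**Figure D5:**
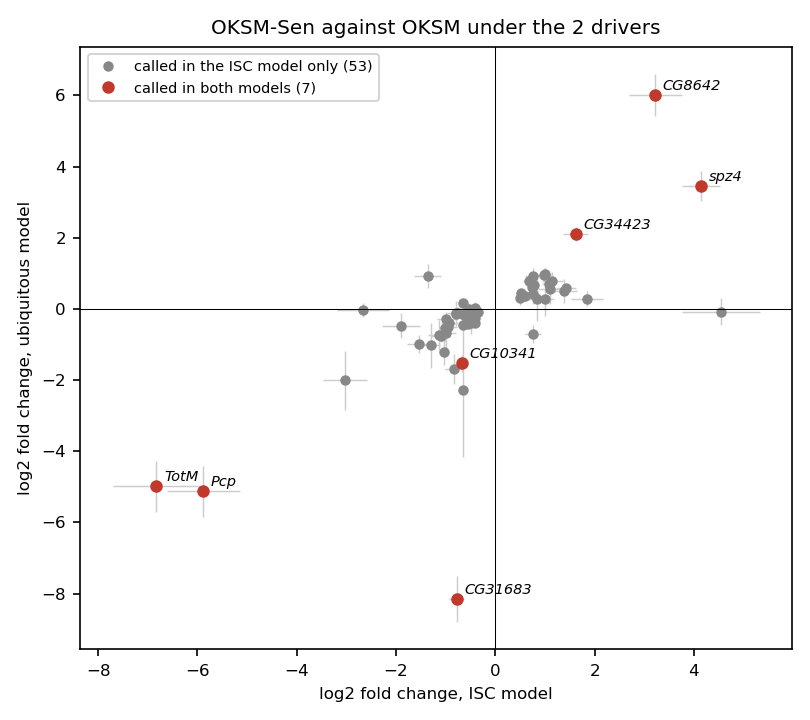
Log2 fold change of OKSM-Sen against OKSM in the ISC model (horizontal) and the ubiquitous model (vertical) for the 60 genes called in the former and tested in both (bars, SE; larger coloured points, the 7 called in both). Of the 60, 55 lie in the lower left or upper right quadrant.

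A difference between the drivers was called for 2 of 9195 genes (0.0218%), with 429 at an unadjusted p under 0.05. Depth differed between the models and cannot be told apart from the driver. CG31683 fell from 21.2, 49.7 and 53.4 CPM to 0.174, 0.0843 and 0.166 CPM under armGal4 and from 76.8, 71.5 and 103 CPM to 47.3, 45.8 and 53.8 CPM under esg-Gal4. The microtubule-associated gene futsch fell from 28, 78.3 and 32.4 CPM to 1.27, 1.77 and 1.37 CPM under armGal4. Under esg-Gal4 it was at 1.14, 1.65 and 0.873 CPM in OKSM and at 1.14, 2.11 and 2.31 CPM in OKSM-Sen.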

How the data were processed

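Each deposited file holds the expected counts per gene of a single library, which the authors made with STAR (2.7.1a) and RSEM (1.3.1). The genome named in the submitters' processing notes is dm6. Reads that fit more than one gene are shared out by RSEM, so near-identical genes are uncertain, and the strand setting of the counting was not found in the sources used here. Of 17714 gene IDs, 17587 were paired with a symbol and with BDGP6.54 coordinates. List members with an ambiguous older symbol, Delta among them, were matched by their current one.

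Expected counts were rounded. Left out were 390 genes of rRNA, snRNA and snoRNA, and all genes averaging under 10 reads over the 12 ISC-model libraries. All 12 libraries entered a single fit on group means with TMM factors, robust glmQLFit and glmQLFTest of edgeR 4.0.16 (R 4.3.3), so that WT and Sen libraries share in the estimate of the spread. SE is the size of the log2 fold change over the root of F, Benjamini-Hochberg adjustment ran over all genes tested, and a gene was called at an FDR below 10%. The ubiquitous model was fitted likewise on its 11 libraries, and the difference between drivers on all 23. The pipeline was tested on simulated data. Alternatives were DESeq2 (here version 1.42.0, a tool the study also used, in a version not given in the sources used here), its size factors, other filters, 6 libraries alone, the labels before their correction, a replicate block and each library left out. Counting intervals cover counting error only.

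Named genes are the 10 largest changes each way among called genes without overlap of libraries, at 5 CPM or more in the higher group and with a proper symbol, the 3 largest each way with a CG or RNA number, up to 4 called members of each gene list, the 5 smallest p each way in the difference between the additions of Sen, and the construct check genes. HIP-R, HIP, MRP, Pcp, CG10936, CG32812, lncRNA:CR44442, CG15236, CG8642, CG10341, zfh2, Hml and the genes named only as neighbours, as list examples or for the other driver were added after their values were seen. The members and lists were chosen with earlier results of these data known. Replicates differed by a chi-square of at least 22.4 per gene, so none was counted as a duplicate.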

Additional observations from a re-analysis of the deposited data

Results flagged for a closer look

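OKSM-Sen against OKSM differed from Sen against WT, by a test of the difference itself, in 2055 genes of the ISC model. Only WT flies carried UAS-TdTomato, so what is particular to WT cannot be told apart from a dependence of Sen on OKSM. Among genes named above, the difference (log2 fold change of OKSM-Sen against OKSM minus that of Sen against WT) was negative for TotM (-5.879), CG13313 (-4.329), GstD9 (-4.234), CG10559 (-3.482), CG40472 (-2.474), rau (-1.902), CG10337 (-1.721), GstD8 (-1.511), Ser6 (-1.085), CG31955 (-1.057), CG11885 (-1.05), Mlc2 (-1.046), Zip42C.1 (-0.7852), CG4053 (-0.7331) and cnn (-0.726). It was positive for stai (2.353), CG3635 (2.045), CG4741 (1.986), Uhg1 (1.51), Daao2 (1.445), Ttd14 (1.412) and Mondo (0.8254). In cnn and GstD8 both log2 fold changes were positive, and that of OKSM-Sen against OKSM was the smaller. In CG31955 and CG11885 Sen and WT differed by 0.03 and 0.04 on the log2 scale, and the whole of the difference lay in the fall from OKSM to OKSM-Sen.

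Between the drivers, the change from OKSM to OKSM-Sen differed in 2 genes, CG31683 (7.362, ISC minus ubiquitous) and futsch (5.574). In both the ubiquitous OKSM libraries were high and the ubiquitous OKSM-Sen libraries were near 0 or under 2 CPM.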

How the results depend on the processing

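OKSM-Sen against OKSM (63 calls) gave 274 by DESeq2 (95 higher, 179 lower), 40 with only the 6 libraries (6 higher, 34 lower), 35 with the labels before their correction, and 10 (without OKSM-Sen replicate 3) to 83 (without WT replicate 3) with a library left out, while DESeq2 size factors (71), filterByExpr (65), no filter (60) and no robust estimation (65) changed it little. The other counts over the leave-outs ran from 2492 to 3559 for Sen against WT, 1332 to 2501 for the difference between the additions (841 with the labels before their correction), 1890 to 3260 for OKSM against WT, 1633 to 2888 for OKSM-Sen against WT, 11 to 24 for the ubiquitous model (206 by DESeq2) and 2 to 4 for the difference between drivers. The libraries whose absence moved a count by over 1.5 times were, for OKSM-Sen against OKSM, OKSM replicate 1 (35), OKSM replicate 2 (41) and OKSM-Sen replicate 3 (10), for the difference between the additions WT replicates 1 (1332) and 2 (1336), for OKSM against WT WT replicates 1 (1989) and 2 (1890), for OKSM-Sen against WT WT replicate 2 (1633), in the ubiquitous model OKSM replicate 1 (11) and OKSM-Sen replicates 2 (14) and 3 (11), and for the difference between drivers ubiquitous OKSM replicate 2 and OKSM-Sen replicate 2 (4 each). The labels give OKSM and OKSM-Sen the same replicate numbers. Deviations of same-numbered libraries correlated at 0.01 to 0.16, and 2 of 6 libraries correlated best with their own number. With 3 libraries per group a pairing cannot be told from these values, and the main fit used none. With a replicate block 61 genes were called, 49 of them among the 63, and 18 in the ubiquitous model. None of the values reversed. Genes with wide intervals, among them most heat-inducible chaperones and all tested antimicrobial peptides, could not be bounded within 1 on the log2 scale. The planned count of promoter motifs was not run. The alternatives for the difference between drivers were added after seeing the data.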

Other observations

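Outside the calls, the ER folding list held 20 genes of which 14 were above 0 in OKSM-Sen against OKSM (median 0.22), all with intervals within 1. None was called by edgeR, and DESeq2 called 4, all higher, where it called 95 of all 9373 genes higher. Against WT, 13 of the 20 rose and 1 fell in OKSM-Sen, and 6 rose and 3 fell in OKSM, where 15.8% and 13.2% of all genes rose and fell in OKSM-Sen and 17.3% and 15% in OKSM. These last counts share the WT libraries. Of 12 protein genes of the mitochondrial genome 2 were above 0 (median -0.31). DESeq2 called 3 of them, all lower, where it called 179 of all 9373 genes lower, and edgeR none.

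A further 26 genes had a log2 fold change over 5 in OKSM-Sen against OKSM and were not called, and were listed after their values were seen. Summed over them, the OKSM libraries held 4.34, 3.44 and 3.24 CPM and the OKSM-Sen libraries 302, 984 and 3050 CPM, while WT held 195, 416 and 944 CPM and Sen 1603, 5329 and 15.2 CPM. These genes fell into sets by library. CG16826 read 0.601, 707 and 2228 CPM in OKSM-Sen and 986, 3385 and 1.21 CPM in Sen, and whe, lcs, CG45080 and CG33109 had the same order of libraries in OKSM-Sen. Send1, named for a spermathecal endopeptidase, read 33.3, 1.28 and 0 CPM in OKSM-Sen and 18.9, 0 and 0 CPM in WT, as did CG32834 at 38.3, 1.28 and 0.275 CPM and 40.7, 0 and 0.306 CPM. In the OKSM libraries 1, 0 and 1 of the 26 genes exceeded 1 CPM, against 12, 16 and 12 in OKSM-Sen, an order that the choice of genes by this fold change sets. In the other direction 3 uncalled genes lay below -5, each high in a single OKSM library or low in all 6: Cp15 (-5.41), Akh (-5.84) and CG30031 (-7.24).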
